A study of Mus musculus with 4 samples.

Results

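The proteasome genes comprised 45 mouse genes of the 22917 genes with a symbol on the array. They were chosen by name, as every symbol made of Psm, a letter from a to g and a number. Psmb8 and Psmb9, the interferon-inducible catalytic subunits, were kept apart and are described with the associated genes. No measured difference entered this naming rule, though earlier results of these data were known when the members were chosen. Each gene was followed through its brightest probe. The set held 17 genes of the core particle, 17 genes of the regulatory particle and 11 genes of assembly chaperones, activators and an inhibitor. Psme2, an activator subunit, was not analysed here because none of the probes could be assigned to it.

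The study asked how MOTS-c, a short peptide encoded in the mitochondrial genome, changes the transcriptome of aged islet cells. Islets of 60-week-old male C57BL/6 mice were dispersed into single cells and given either MOTS-c or a scrambled control peptide in the culture dish, at 10 μM for 24 h. The paper states that the cells came from 4 littermates, with 2 per group. RNA of each of the 4 samples was hybridized to its own one-color array. There were 2 scrambled arrays (replicates 1 and 2) and 2 MOTS-c arrays (replicates 2 and 3), all without a genetic change, and the labels do not say which animals gave which sample, so the spread between arrays of a group may be technical.

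The proteasome breaks down proteins that carry ubiquitin chains. Its core particle is a stack of alpha and beta rings that encloses the cutting sites, and its regulatory particle binds ubiquitin chains, removes them and unfolds the substrate with a ring of ATPases. Subunits are present in fixed ratios, and in many cells their genes are switched on together by the transcription factor Nfe2l1 when proteasome activity is low. Beta cells, which synthesize large amounts of proinsulin, depend on this route to dispose of misfolded protein from the endoplasmic reticulum.

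All 4 arrays lay on 1 slide and shared a scan, between 61.6% and 65.0% of gene spots were well above background, and no gene spot was saturated. Ins1, Ins2, Iapp, Chga and Gcg were far above background on every array. Of 7 acinar markers, 3 were well above background on all arrays, with a summed log2 signal of 11.82 and 11.94 with the scrambled peptide and of 11.30 and 11.01 with MOTS-c. The lower sum follows Cela1, a pancreatic elastase, with a log2 difference of -0.76, while Ctrb1, a chymotrypsinogen, differed by 0.33 and lay higher on both MOTS-c arrays, and Cel, a lipase, differed by -0.14 with overlap. Beta cell markers summed to between 19.7 and 19.8 on all arrays, a sum that mostly follows Ins1 and Ins2, while single markers differed. Of the 8 beta cell markers, 3 lay higher and 4 lower on both MOTS-c arrays, beside 19.4% and 18.6% of all probes. Slc2a2, at only 1.31 to 2.30 times its background, differed by -1.33 and Pdx1 by -0.28, while Mafa differed by 0.16 and Nkx6-1 by 0.12. Xist, which coats the inactive X, measured 23.7 to 33.5 times its background, while Ddx3y, Eif2s3y, Kdm5d and Uty, genes of the Y chromosome, were well above background on 0 of 4 arrays, which goes against the label of male animals on all arrays of both groups. The part of any of these in the values below was not tested, and fewer cells of a type and less RNA per cell cannot be told apart in such samples.

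Of the 45 proteasome genes, 43 were well above background on all 4 arrays. Psma8, an alpha subunit known from testis, was at 0.886 to 1.22 times its local background, and Psmb11, a catalytic subunit known from thymic cortical epithelium, was at 1.14 to 1.38 times. Neither was well above background on any array, and both went untested. The other 43 were bright, with Psmd5 the nearest to its background at 52.0 to 68.1 times, whereas the median probe of an array was at 2.76 to 3.07 times. Signals below are log2 intensities after quantile normalization, and differences are MOTS-c minus scrambled means on that log2 scale.

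The proteasome genes differed little between MOTS-c and scrambled cells. None of the 43 reached an unadjusted p of 0.05 by limma, against 7.85% of the 35087 probes tested, and the smallest adjusted p among them was 0.717. Over all probes, 0% (0 of 35087) passed an adjusted p of 0.05 by limma, and 2755 had an unadjusted p under 0.05, while the methods' t-test called 1 probe after adjustment. The 43 log2 differences ran from -0.25 to 0.39 with a median of 0.024, and the median over all probes was 0.014. None of the genes changed by 1.5-fold, a size reached by 1840 of the 35087 probes and by 875 of the 15478 brightest probes of named genes. Together with an unadjusted p under 0.05 by limma, that size was met by 3.53% of all probes.

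**Figure D1:**
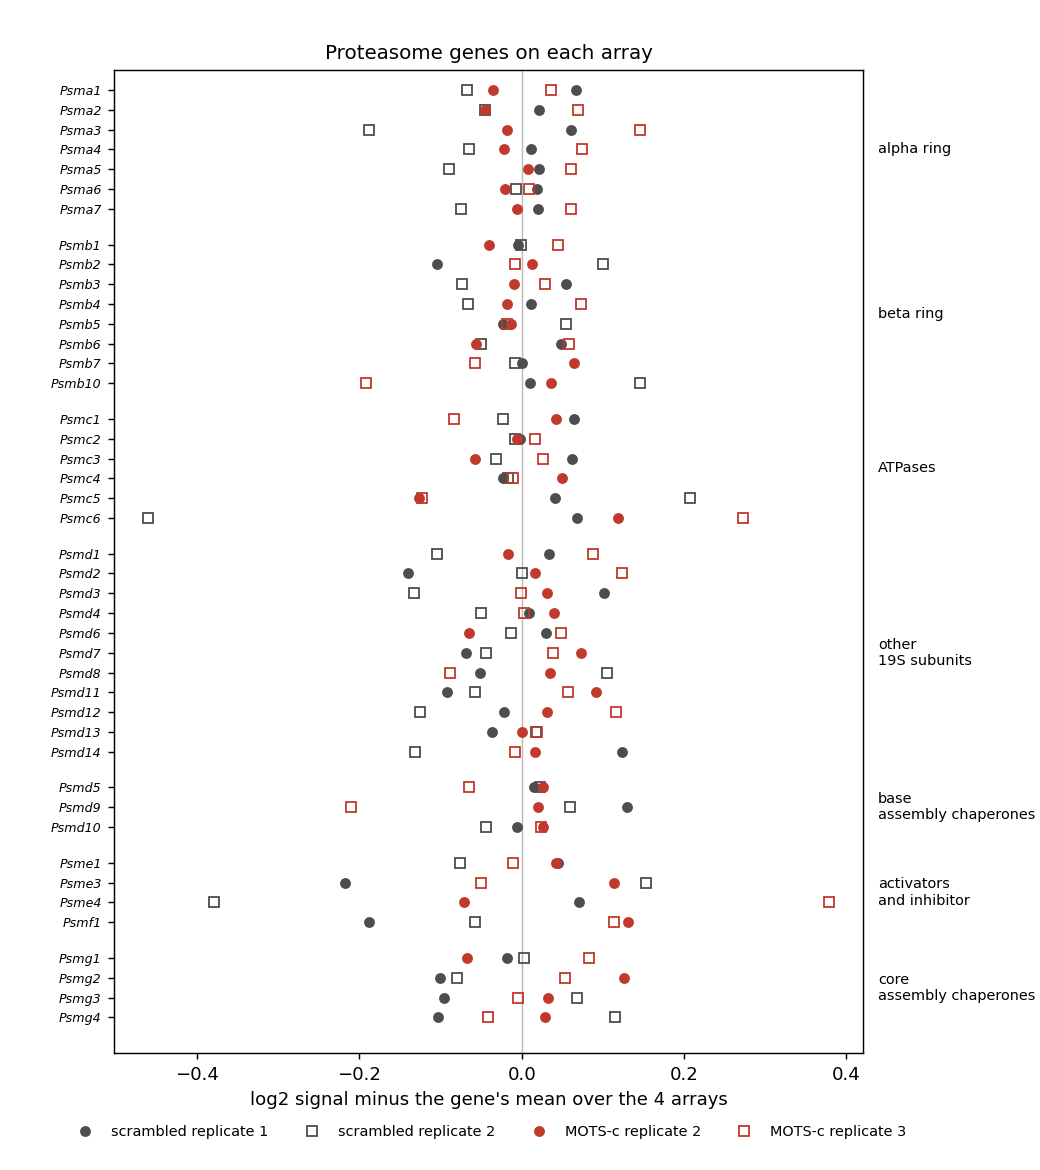
Log2 signal of each of the 43 proteasome genes on each of the 4 arrays, after subtracting the gene's mean over the arrays (x axis, log2 units), with the genes in rows by class. Most points lie within 0.1 of the mean, and Psmc6 and Psme4 spread widest, with scrambled replicate 2 lowest and MOTS-c replicate 3 highest in both.

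The size of the differences was small in most genes. The median absolute log2 difference was 0.042 for the proteasome genes and 0.143 for all probes. An absolute difference under 0.1 was found for 31 of 43 genes (72.1%) and for 37.7% of all probes. The 95% interval of the difference lay within 1.5-fold in both directions for 40 of 43 genes (93.0%), against 50.2% of all probes and 56.4% of the brightest probes of all named genes. The exceptions were Psmc5, Psmc6 and Psme4. The arrays of a group also lay close together for these genes, with a median log2 distance of 0.095 within the scrambled group and 0.073 within the MOTS-c group, where all probes gave 0.164 and 0.189. How far the brightness of the probes accounts for this was not tested. With 2 arrays against 2, an exact two-sided permutation test of a single gene cannot fall below p = 0.333.

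**Figure D2:**
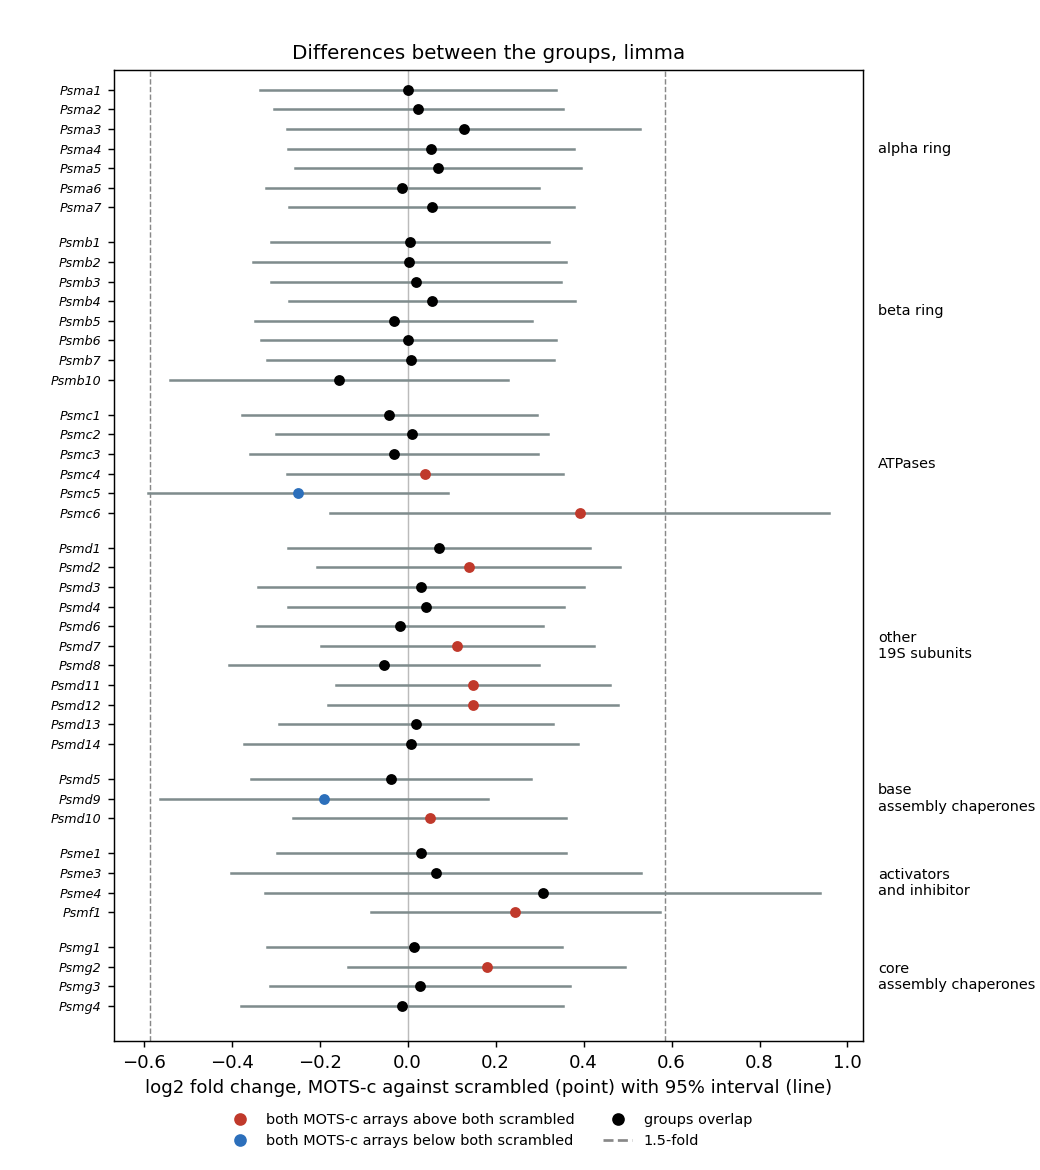
Log2 fold change of MOTS-c against scrambled (x axis, points) with the 95% interval from limma (lines) for the 43 proteasome genes, by class, with dashed lines at 1.5-fold. Every interval spans 0, and only those of Psmc5, Psmc6 and Psme4 cross a dashed line.

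In 9 of 43 genes (20.9%) the 2 MOTS-c arrays lay wholly above the 2 scrambled ones, against 19.4% of all probes, and in 2 genes (4.65%) wholly below, against 18.6%. The 9 genes were Psmc4, Psmc6, Psmd2, Psmd7, Psmd10, Psmd11, Psmd12, Psmf1 and Psmg2, and the 2 genes were Psmc5 and Psmd9. With each array scaled by its 75th percentile in place of quantile normalization, 6 genes lay above and 5 below. Of all probes, 17.29% lay above and 18.03% below with that scaling. With the mean over a gene's probes, 13 lay above and 2 below, against 18.9% and 18.7% of all genes and unnamed probes. The set had no stable common sign, since 32 differences were positive and 11 negative after quantile normalization, 14 were positive and 29 negative after the percentile scaling, and 21 were positive and 22 negative after the normexp background correction. Across genes, scrambled replicate 2 was the lowest array for 18 of 43 and MOTS-c replicate 3 the highest for 17 of 43.

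In the core particle no gene separated the groups by its brightest probe, though dimmer probes of Psma3 and Psma4 did. On the brightest probe all 15 measured core genes overlapped, against 19.4% of all probes higher and 18.6% lower without overlap. Their median log2 difference was 0.0073 with a range from -0.16 to 0.13, and 15 of 15 intervals lay within 1.5-fold. The alpha ring forms the gate of the core. Its 7 measured genes had a median difference of 0.053 and ran from -0.012 for Psma6 to 0.13 for Psma3. Psma3 was at 16.17 and 15.93 on the scrambled arrays and at 16.10 and 16.26 on the MOTS-c arrays, with a log2 difference of 0.13 (SE 0.15, limma adjusted p = 0.877). The groups overlapped, because scrambled replicate 1 lay above MOTS-c replicate 2. Psma6 was at 15.81 and 15.78 on the scrambled arrays and at 15.77 and 15.80 on the MOTS-c arrays, so that all its arrays were within 0.04. By their brightest probes, Psma1, Psma2, Psma4, Psma5 and Psma7 differed by 0.0011 to 0.069.

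The beta ring carries the cutting sites. Psmb5 provides the chymotrypsin-like site, Psmb6 the caspase-like site and Psmb7 the trypsin-like site of the standard core. Psmb5 was at 14.56 and 14.63 on the scrambled arrays and at 14.57 and 14.56 on the MOTS-c arrays, a log2 difference of -0.032 (SE 0.12, limma adjusted p = 0.971) with a 95% interval from -0.35 to 0.28. Psmb6 was at 16.90 and 16.80 against 16.80 and 16.91, a difference of 0.0018 (SE 0.13, limma adjusted p = 0.998). Psmb7 was at 13.61 and 13.60 against 13.67 and 13.55, a difference of 0.0073 (SE 0.12, limma adjusted p = 0.995). In these 3 catalytic subunits the arrays of both groups were interleaved, and none differed by more than the distance between its scrambled arrays. The MOTS-c arrays of Psmb5 lay closer together than its difference.

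Psmb10, the inducible subunit that takes the place of Psmb7 in the immunoproteasome, had the largest negative difference of the core. It was at 13.36 and 13.49 on the scrambled arrays and at 13.38 and 13.15 on the MOTS-c arrays, a log2 difference of -0.16 (SE 0.15, limma adjusted p = 0.840). MOTS-c replicate 3 was the low array, and MOTS-c replicate 2 lay between the scrambled arrays. Psmb4, a subunit without a cutting site, had the largest positive difference of the beta ring, at 16.55 and 16.47 against 16.52 and 16.61 (0.055, SE 0.12, limma adjusted p = 0.944), and its groups overlapped. Psmb2, also without a cutting site, was at 12.004 and 12.21 on the scrambled arrays and at 12.12 and 12.10 on the MOTS-c arrays. Both MOTS-c arrays of Psmb2 thus fell between the scrambled ones. Psmb1 and Psmb3 differed by 0.0056 and 0.019.

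The regulatory particle spanned a wider range of differences than the core, through Psmc6 and Psmc5 alone. Its other genes ran from -0.054 (Psmd8) to 0.15 (Psmd11), against -0.16 to 0.13 in the core. Of its 17 genes, 6 lay higher on both MOTS-c arrays (35.3%, against 19.4% of all probes), 1 lay lower (5.88%, against 18.6%) and 10 overlapped, with a median log2 difference of 0.031 and a range from -0.25 to 0.39. The ATPase ring, whose 6 subunits unfold the substrate and feed it into the core, held both extremes. Psmc6 was at 15.41 and 14.88 on the scrambled arrays and at 15.46 and 15.61 on the MOTS-c arrays. The MOTS-c arrays did not overlap the scrambled ones, and scrambled replicate 2 stood 0.53 below scrambled replicate 1. The log2 difference was 0.39 (SE 0.22, limma adjusted p = 0.735), a fold of 1.31 with a 95% interval of the log2 difference from -0.18 to 0.96. Without scrambled replicate 2 it was 0.13, and without scrambled replicate 1 it was 0.66, past an unadjusted p of 0.05, so scrambled replicate 2 decides its size.

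Psmc5, another ATPase of the ring, lay the other way. It was at 14.40 and 14.57 on the scrambled arrays and at 14.23 and 14.24 on the MOTS-c arrays, a log2 difference of -0.25 (SE 0.13, limma adjusted p = 0.723) and a fold of 0.842. The MOTS-c arrays were within 0.01 of each other and both below the scrambled arrays, and the 95% interval ran from -0.59 to 0.092. Psmc3 was at 16.81 and 16.71 against 16.69 and 16.77, a difference of -0.031, and the groups overlapped. Psmc4 differed by 0.040 without overlap, and Psmc1 and Psmc2 differed by -0.042 and 0.010 with overlap. The 6 ATPase genes, whose products are present in equal number in the ring, therefore had a median difference of -0.010 with 2 genes higher (33.3%, against 19.4% of all probes), 1 lower (16.7%, against 18.6%) and 3 overlapping.

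Among the 11 other subunits of the regulatory particle, 4 lay higher on both MOTS-c arrays (36.4%, against 19.4% of all probes), 0 lower (against 18.6%) and 7 overlapped, with a median log2 difference of 0.042. Psmd11, a lid subunit that holds the regulatory particle to the core, had the largest positive difference of these. It was at 11.18 and 11.21 on the scrambled arrays and at 11.36 and 11.32 on the MOTS-c arrays, a difference of 0.15 (SE 0.12, limma adjusted p = 0.812). The arrays of each group were within 0.05 of each other and the groups did not overlap. Psmd12, a second lid subunit, differed by 0.15 (SE 0.13, limma adjusted p = 0.825), Psmd2, a large scaffold subunit that binds ubiquitin-like domains, by 0.14 and Psmd7, the partner of the deubiquitinase Psmd14, by 0.11, also without overlap.

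Psmd8, another lid subunit, had the largest negative difference of these 11, at 13.17 and 13.32 on the scrambled arrays and at 13.25 and 13.13 on the MOTS-c arrays (-0.054, SE 0.13, limma adjusted p = 0.948). Its groups overlapped. Psmd14, the enzyme that cuts ubiquitin chains off the substrate, was at 14.23 and 13.97 against 14.12 and 14.10, and both MOTS-c arrays fell between the scrambled ones. Psmd1, the other large scaffold subunit, was at 15.35 and 15.21 against 15.30 and 15.41 (0.071). The lid subunit Psmd6 was at 15.62 and 15.58 against 15.53 and 15.64 (-0.016). Psmd13, also of the lid, was at 15.78 and 15.83 against 15.82 and 15.84 (0.020). None of these 3 separated the groups. Psmd3 and the ubiquitin receptor Psmd4 differed by 0.031 and 0.042 with overlap.

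Core and regulatory particle were then set against each other. The median log2 difference of the core genes was 0.023 below that of the regulatory particle genes (-0.023), less than the spread of 0.040 that the arrays of a group gave for the same quantity. On each array, the mean deviation of the core genes from their own means was compared with that of the regulatory particle genes. These are means and not medians, so the spread of 0.040 does not apply to them. The core mean minus the regulatory mean was 0.0082 and 0.022 with the scrambled peptide and -0.027 and -0.0034 with MOTS-c. Both MOTS-c values lay below both scrambled values, but the gap between the nearest of them was smaller than the distance between the MOTS-c arrays. Without MOTS-c replicate 2 the difference of the medians turned to 0.025.

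**Figure D3:**
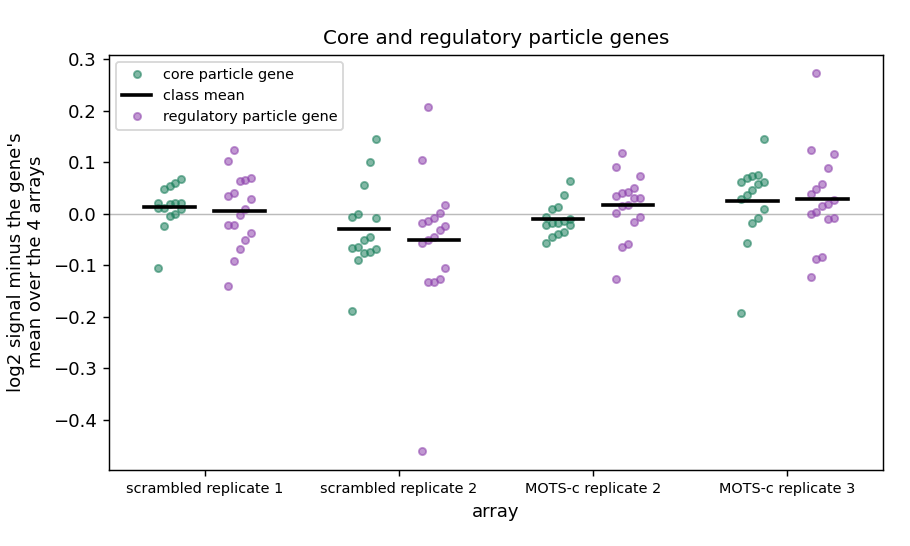
Deviation of each core particle gene and regulatory particle gene from its own mean over the arrays (y axis, log2 units) on each array, with a bar at the class mean. The class means stay between -0.051 and 0.029, and on scrambled replicate 2 both classes have their lowest mean.

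The assembly chaperones and regulators are not part of the finished particles. Psmd5, Psmd9 and Psmd10 escort the ATPases during assembly of the base. Psmd9 was at 11.73 and 11.66 on the scrambled arrays and at 11.62 and 11.39 on the MOTS-c arrays, a log2 difference of -0.19 (SE 0.14, limma adjusted p = 0.797). The MOTS-c pair was the lower one, with replicate 3 much further down than replicate 2. Psmd10 was at 13.32 and 13.28 against 13.35 and 13.35, higher without overlap but by 0.051 (SE 0.12, limma adjusted p = 0.946). Psmd5 differed by -0.038 and overlapped. Of the core chaperones, Psmg2 was at 13.04 and 13.07 on the scrambled arrays and at 13.27 and 13.20 on the MOTS-c arrays (0.18, SE 0.12, limma adjusted p = 0.773), without overlap. Psmg1, with which Psmg2 forms a dimer that builds the alpha ring, was at 14.58 and 14.60 against 14.53 and 14.68 (0.015), and its MOTS-c arrays lay on either side of the scrambled ones. Psmg4 was at 11.59 and 11.81 against 11.72 and 11.65 (-0.012), and Psmg3, its partner, differed by 0.028, both with overlap.

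Psme4, a large single-chain activator that caps the core in the nucleus, had the second largest positive difference of all members. It was at 14.60 and 14.15 on the scrambled arrays and at 14.46 and 14.91 on the MOTS-c arrays, a log2 difference of 0.31 (SE 0.24, limma adjusted p = 0.806) with a 95% interval from -0.32 to 0.94. The groups overlapped, since scrambled replicate 1 lay above MOTS-c replicate 2. The difference was 0.082 without MOTS-c replicate 3, 0.083 without scrambled replicate 2 and 0.53 without either of the other arrays. Psmf1, an inhibitor of the core in the test tube, was at 11.61 and 11.74 on the scrambled arrays and at 11.92 and 11.91 on the MOTS-c arrays. Its groups did not overlap, and its log2 difference of 0.25 (SE 0.12, limma adjusted p = 0.717) had a 95% interval from -0.083 to 0.57. Psme1, of the interferon-inducible activator ring, and Psme3, of the nuclear activator ring, differed by 0.031 and 0.065 and overlapped.

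A second look at the same transcripts came from the genes with more than 1 tested probe. There were 18 such genes, and of all 66 tested probes of the 43 members 0 had an unadjusted p under 0.05 by limma. The probes of a gene had the same sign in 10 of the 18 genes and different signs in 8, namely Psmb2, Psmb6, Psmc3, Psmd1, Psmd6, Psmd13, Psmd14 and Psmg1. In these 8 genes every difference was between -0.066 and 0.088. The median distance between the highest and the lowest probe of a gene was 0.075 on the log2 scale, and the widest was 0.19, for Psma4. Of the 23 dimmer probes, after quantile normalization, 10 lay higher on both MOTS-c arrays and 0 lower, beside 19.4% and 18.6% of all probes. Among the 10 were core probes, the dimmer one of Psma3 (0.20) and the dimmer ones of Psma4 (0.17, 0.25 and 0.052). The dimmer probe of Psme4 was at 9.77 and 9.60 on the scrambled arrays and at 9.96 and 10.25 on the MOTS-c arrays, a log2 difference of 0.42 (SE 0.16, limma adjusted p = 0.639). Unlike its brightest probe, this one separated the groups. The dimmer probe of Psmf1 differed by 0.13 and overlapped.

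**Figure D4:**
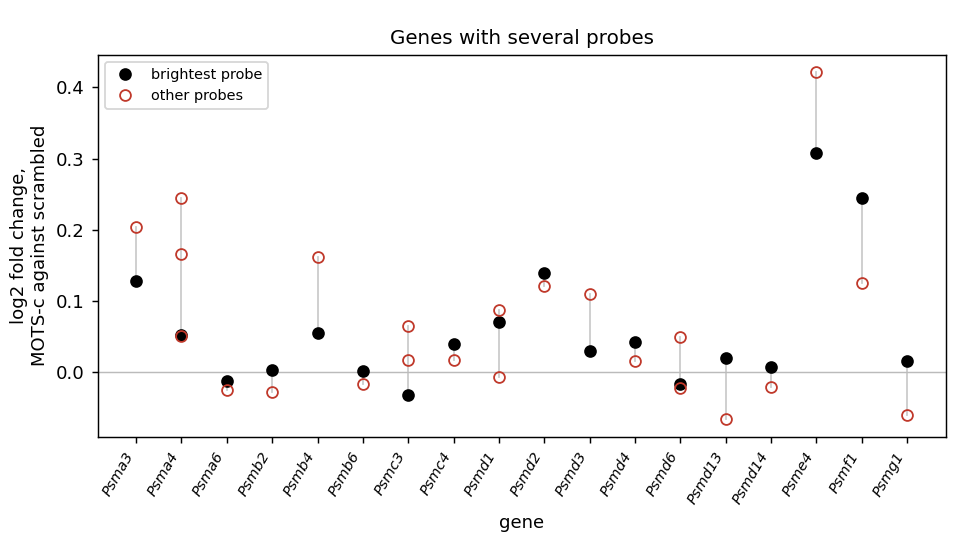
Log2 fold change of MOTS-c against scrambled (y axis) for every tested probe of the 18 proteasome genes that had several, with the brightest probe filled and the others open. The probes of a gene lie within 0.19 of each other, and 8 genes have probes on both sides of 0.

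The members' promoters were searched for letters that the rule had not used. RefSeq promoters of assembly GRCm38.p6, from 250 bases before to 50 bases after the start, were matched by symbol for 37 of the 45 genes, in 39 windows. The antioxidant response core TGACNNNGC, the kind of site that the factors Nfe2l1 and Nfe2l2 recognize in proteasome genes, was found on either strand in 6 of 39 windows (15.4%), against 12.4% of the 32851 promoters of all genes. The letters TGAC also begin other sites, and a match is a description and not a bound site. CCAAT was found on either strand in 13 of 39 windows (33.3%) and in 37.4% of all. No window held both motifs. Of the 6 genes with TGACNNNGC, 5 are shown because they are the catalytic subunits Psmb5 and Psmb6 and the genes Psmc6, Psme4 and Psmd9 with some of the widest differences. Each runs 5′ to 3′ on the strand of the gene and ends at the latest where the transcript starts or the motif ends, and the capitals mark the match.
Psmb5, chr14:54618009-54618067, minus strand: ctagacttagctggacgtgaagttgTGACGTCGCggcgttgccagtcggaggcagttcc
Psmb6, chr11:70525323-70525356, plus strand: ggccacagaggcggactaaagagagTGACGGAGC
Psmc6, chr14:45329574-45329630, plus strand, motif on the opposite strand: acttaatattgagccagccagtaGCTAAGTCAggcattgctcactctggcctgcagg
Psme4, chr11:30771743-30771776, plus strand, motif on the opposite strand: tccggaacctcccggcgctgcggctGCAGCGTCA
Psmd9, chr5:123228134-123228189, plus strand: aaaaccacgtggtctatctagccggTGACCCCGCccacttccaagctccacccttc
The match starts 47 bases before the start site in Psmb5 (-47), at -9 in Psmb6, -227 in Psmc6, -7 in Psme4 and -31 in Psmd9. Psmd12 is the other gene with a match, at -247. Among these 6 genes the log2 differences were -0.032, 0.0018, 0.39, 0.31, -0.19 and 0.15 in the order just given, so that genes with the motif lay on both sides of 0.

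The wider pathway was followed in 31 associated genes, of which 30 had a probe, all well above background on every array. Paaf1 was not analysed here. The 2 MOTS-c arrays lay wholly above the 2 scrambled ones in 11 of the 30 genes (36.7%), below in 7 (23.3%), and 12 overlapped, beside 19.4% higher and 18.6% lower among all probes, with a median log2 difference of 0.042 and a range from -0.28 to 0.44. 1 gene (3.33%) had an unadjusted p under 0.05 by limma, against the 7.85% of all probes. It was Uchl5, a deubiquitinase that sits on the regulatory particle, at 13.00 and 12.86 on the scrambled arrays and at 13.26 and 13.32 on the MOTS-c arrays, a log2 difference of 0.36 (SE 0.13, limma adjusted p = 0.604). The groups did not overlap, though the value fails the adjustment. Adrm1, the receptor to which Uchl5 binds, was at 13.73 and 13.82 against 13.84 and 13.70, a difference of -0.0080 with overlap.

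Nfe2l1, the transcription factor of the subunit genes, was at 13.56 and 13.47 on the scrambled arrays and at 13.44 and 13.40 on the MOTS-c arrays, a log2 difference of -0.10 (SE 0.12, limma adjusted p = 0.880). Both MOTS-c arrays were lower, by little. Pomp, the chaperone that closes the new core, was at 16.21 and 16.00 against 16.12 and 15.96 (-0.065, SE 0.15, limma adjusted p = 0.945) and overlapped. Of the inducible catalytic subunits outside the rule, Psmb8 was at 11.78 and 12.02 against 11.90 and 12.05 (0.081, SE 0.15, limma adjusted p = 0.930), with overlap. Psmb9 was at 10.88 and 11.09 on the scrambled arrays and at 11.18 and 11.18 on the MOTS-c arrays (0.20, SE 0.13, limma adjusted p = 0.782), without overlap. The inducible subunits therefore had no common sign, with Psmb8 and Psmb9 above 0 and Psmb10 below.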

How the data were processed

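RNA of 4 islet cell samples was measured on one-color Agilent mouse arrays. The authors labeled the RNA with Cy3, extracted the spots with Feature Extraction and deposited a background-corrected intensity for each spot, without any scaling from array to array. Their rounded table repeats the deposited intensity at 3 digits (ratio 0.995 to 1.005, array medians 46.6 to 54.9).

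From these, 3671 control spots and 96 to 131 outlier spots per array were left out, log2 intensities were averaged per probe, and the probes that passed the scanner's background test on 2 or more arrays were quantile normalized. limma (3.58.1, R 4.3.3) compared MOTS-c with scrambled over 35087 probes, with Benjamini-Hochberg adjustment. The fit had 2 residual degrees of freedom plus 2.64 borrowed from the other probes. The study's methods name a t-test, which was run as an alternative. Their filter on Flag A is not defined. Probes were named through the RefSeq gene table of GRCm38.p6 by accession (32994), symbol (12) or synonym (18), and 23581 stayed unnamed. Gene coordinates are left out because the array was designed on an older build. The steps were tested on simulated data.

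The members and lists were chosen with earlier results of these data known. Values per array are given for the largest rise and fall of each class, the genes whose probes differ in sign, the catalytic subunits and the members not above background. Psmf1, the dimmer probes of Psma3, Psma4, Psme4 and Psmf1, and the other genes printed beyond this were named after their values were seen. Of the associated list, Uchl5 met the rule, and Nfe2l1, Pomp, Adrm1, Psmb8 and Psmb9 were set in it, and some genes of that list are not reported here. The alternatives were another scaling, normexp (offset 50), the deposited table, no filter or a strict filter on dim probes, leaving out each array, the t-test, a trend in limma and the mean over a gene's probes. The number of arrays, 4, limits the precision.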

Additional observations from a re-analysis of the deposited data

How the results depend on the processing

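No paired analysis was possible because the groups share only replicate number 2, and a block for slide or scan was not run, since the arrays share both. No member reached 1.5-fold except Psmc6 without scrambled replicate 1 (0.66), while the members' common sign and the counts at a threshold depended on the processing. With the 75th percentile scaling the median log2 difference was -0.027 for all proteasome genes, -0.046 for the core and -0.027 for the regulatory particle. There, 5 members lay lower on both MOTS-c arrays, against 18.03% of all probes, and 0 associated genes had an unadjusted p under 0.05. With normexp the medians were -0.0079 for all members, -0.016 for the core and -0.0079 for the regulatory particle, and 5 members lay lower, against 19.5% of all probes. An unadjusted p under 0.05 by limma was then met by 3 members (Psmc6, Psmf1 and Psmg2) and 3 associated genes, against 8.86% of all probes. That p together with 1.5-fold was met by 407 probes in place of 1239. With the methods' t-test these counts were 3 members (Psmd7, Psmd11 and Psmg2), 3 associated genes and 458 probes. An unadjusted p under 0.05 by that t-test was met by 6.59% of all probes, and 1 probe passed the adjustment. With a trend in limma 2 members (Psmc5 and Psmc6) and 2 associated genes had an unadjusted p under 0.05, against 8.39% of all probes. With no filter on dim probes it was 2 members (Psmf1 and Psmg2) and 3 associated genes, against 8.18%.

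Leaving out 1 array gave medians of 0.0077 to 0.057 for all members, -0.00018 to 0.057 for the core and 0.012 to 0.069 for the regulatory particle, and the core minus the regulatory median ran from -0.022 to 0.025, positive only without MOTS-c replicate 2. From 12 to 24 members lay higher and 7 to 10 lower, and with 3 arrays 34.5% to 37.5% and 29.3% to 38.3% of all probes do. From 0 to 1 member (Psmc6, without scrambled replicate 1) had p under 0.05, as did 0 to 1 associated genes, and 1391 to 3299 probes met p and 1.5-fold, the most without MOTS-c replicate 2.

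Signs near 0 turned. Over all 43 members, 25 kept their sign with the 75th percentile scaling, 32 with normexp, 41 with the deposited table and 36 with the mean over a gene's probes. The values and counts that follow cover only the members chosen by rule for values per array, and so not Psmd7 or Psmf1. With the 75th percentile scaling the log2 difference became -0.0058 for Psmb2, -0.029 for Psmb4, -0.061 for Psmb6, -0.030 for Psmb7, -0.050 for Psmd13, -0.032 for Psmd14 and -0.042 for Psmg1. With normexp it became -0.071 for Psmb6, -0.067 for Psmb7, -0.036 for Psmd13 and -0.042 for Psmd14, and with the deposited table -0.0063 for Psmb6. With the mean over a gene's probes it became -0.012 for Psmb2, -0.0071 for Psmb6, 0.017 for Psmc3, -0.023 for Psmd13, -0.0064 for Psmd14, 0.0037 for Psmd6 and -0.022 for Psmg1. Leave-one-out ranges that crossed 0 were -0.027 to 0.0035 for Psma6, -0.099 to 0.11 for Psmb2, -0.071 to 0.0074 for Psmb5, -0.055 to 0.059 for Psmb6, -0.053 to 0.068 for Psmb7, -0.078 to 0.016 for Psmc3, -0.0076 to 0.047 for Psmd13, -0.12 to 0.14 for Psmd14, -0.073 to 0.040 for Psmd6, -0.13 to 0.025 for Psmd8, -0.060 to 0.091 for Psmg1 and -0.12 to 0.097 for Psmg4. In all, 39 of these single-gene values turned, 8 passed an unadjusted p of 0.05 and 229 kept sign and side of the threshold. The causes were not tested.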
